A study of Mus musculus with 12 samples.

Results

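The endoplasmic reticulum (ER) stress response was read in mouse lung through 10 genes: Atf4, Xbp1, Ddit3, Trib3, Hspa5, Hyou1, Pdia4, Sdf2l1, Dnajb9 and Herpud1. They were chosen by name, and every probe set that the array annotation assigns to 1 of these symbols alone was taken. That gave 23 probe sets, of which 20 passed the filter on low signals, a mean log2 signal of at least 3.056 over all arrays. The probe set with the highest mean stood for each gene and the others served as a check. All 10 genes passed, among 12309 genes tested.

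Total RNA of lung was hybridised to Affymetrix arrays in 4 groups of 3 animals. The groups were nmMLCK-/- mice with ventilator-induced lung injury (KO-VILI), nmMLCK-/- mice under spontaneous breathing (KO-SB), wild-type mice with the injury (WT-VILI) and wild-type mice under spontaneous breathing (WT-SB). All were male C57BL/6 mice of 8 to 12 weeks, and nmMLCK stands for non-muscle myosin light chain kinase, a product of Mylk. VILI meant 4 h of ventilation at 65 breaths per min with an end-expiratory pressure of 0 cm H2O. Labels of the samples put the tidal volume at 40 ml/kg, whereas the series description has 30 ml/kg. With no ventilated control group, the size of the breaths cannot be told apart from ventilation itself. The labels do not say how or in which cells the knockout was made.

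Secreted and membrane proteins fold in the ER with the help of chaperones such as the Hspa5 product (BiP). When unfolded proteins build up, the sensors PERK, IRE1 and ATF6 switch on the unfolded protein response. PERK phosphorylates the translation factor eIF2alpha, which lowers general translation but raises translation of ATF4, a transcription factor that also answers amino acid shortage and oxidative stress. ATF4 drives Ddit3, which encodes the transcription factor CHOP, and both act on Trib3. IRE1 splices the Xbp1 mRNA, and spliced XBP1 and cleaved ATF6 raise the genes of chaperones and of ER-associated degradation. Neither splicing of Xbp1 nor protein levels are measured by these arrays. In the lung, alveolar type 2 cells and plasma cells carry a heavy secretory load.

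The promoters of Hspa5 and Herpud1 are shown because they alone among the windows of these genes held exact copies of the ER stress motifs searched upstream of the start. RefSeq windows on GRCm38.p6, 250 bases before to 50 after the gene start, were at hand for 9 of the 10 genes (all but Hyou1). Both strands were searched for the ER stress response element ERSE, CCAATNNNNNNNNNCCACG, for ERSE-II, ATTGGNCCACG, for the unfolded protein response element UPRE, TGACGTGG, and for the C/EBP-ATF element CARE, TGATGNAA. The 150 bases before each start follow, 5′ to 3′ on the plus strand, with the matches in capitals.
Hspa5, chr2:34771940-34772089: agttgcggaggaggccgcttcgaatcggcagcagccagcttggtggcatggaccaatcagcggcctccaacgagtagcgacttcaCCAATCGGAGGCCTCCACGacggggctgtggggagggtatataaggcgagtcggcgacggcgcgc
Herpud1, chr8:94386279-94386428: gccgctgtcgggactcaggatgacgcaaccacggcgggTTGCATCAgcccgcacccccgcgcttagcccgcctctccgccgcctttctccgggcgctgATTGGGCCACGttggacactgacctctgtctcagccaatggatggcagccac

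The Hspa5 match is an ERSE that begins 65 bases before the start, a motif held by 0.119% of the 32851 windows of all genes. Herpud1 held an ERSE-II at 52 bases before the start, a motif of 0.0365% of windows, and a CARE on the opposite strand at 112 bases. CARE was found in 3.97% of windows. Among the 10 genes it also matched in Trib3, 14 bases past the start. UPRE occurred in 0.676% of windows and in none of these 9. A match is a description of the letters, and these arrays do not measure binding.

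The arrays correlated at 0.9806 to 0.9979. The first principal component, with 51.7% of the variance, separated VILI from SB, and the second, with 17.1%, distinguished KO-SB replicate 2 and WT-SB replicate 3 from the remaining SB arrays. Results that rest on these 2 arrays are given below with and without them. The 2 arrays were picked out by these same signals. Leaving them out keeps only 2 arrays in each SB group and removes spread there. Standard errors and adjusted p without them are therefore descriptive only. Mylk was read by 3 probe sets, none of which passed between knockout and wild type under either condition (limma, smallest adjusted p = 0.559), and the isoform that each one reads is not stated. Lung markers were high on every array, with Sftpc of type 2 cells at 15.70 to 15.81 and Cdh5 of endothelium at 11.06 to 12.43 log2. Neutrophil markers, led by Il1r2 and Mmp8, moved with VILI. In the knockout 8 of 10 rose (8.12% of all genes did) and in wild type 2 of 10 (6.34%). Without the 2 SB arrays 7 of 10 rose in wild type (8.3%). Of these markers 0 of 10 passed for the difference of the VILI responses, knockout minus wild type, with all arrays. The log2 of their summed signal was 15.51 to 16.16 in KO-VILI against 13.36 to 13.85 in KO-SB, and 15.36 to 15.95 in WT-VILI against 14.07 to 15.58 in WT-SB, where replicate 3 was the highest. No marker was listed at 0. The part of these cells in the results below was not tested, and in lung tissue fewer cells of a type and less RNA per cell cannot be told apart.

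With VILI some of the 10 genes rose, Ddit3 fell, and 6 passed in no comparison with all arrays. In the knockout 3 of the 10 rose (Atf4, Hspa5 and Hyou1), where 8.12% of all tested genes did, and Ddit3 fell, where 12.6% did. In wild type Atf4 alone rose, against 6.34% of all genes, and Ddit3 alone fell, against 9.03%. In the mean response of both genotypes the same 3 genes rose as in the knockout and Ddit3 fell, with 14.1% of all genes higher and 22.6% lower. The median response of the 10 genes was 0.11 log2 in the knockout and 0.01 in wild type, and that of all genes was -0.05 in each. These calls are from limma with Benjamini-Hochberg adjustment over all genes at 0.05. Each difference below is in log2, ± its standard error, from 3 arrays in each group unless arrays are said to be left out. A group with an array left out has fewer than 3.

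**Figure D1:**
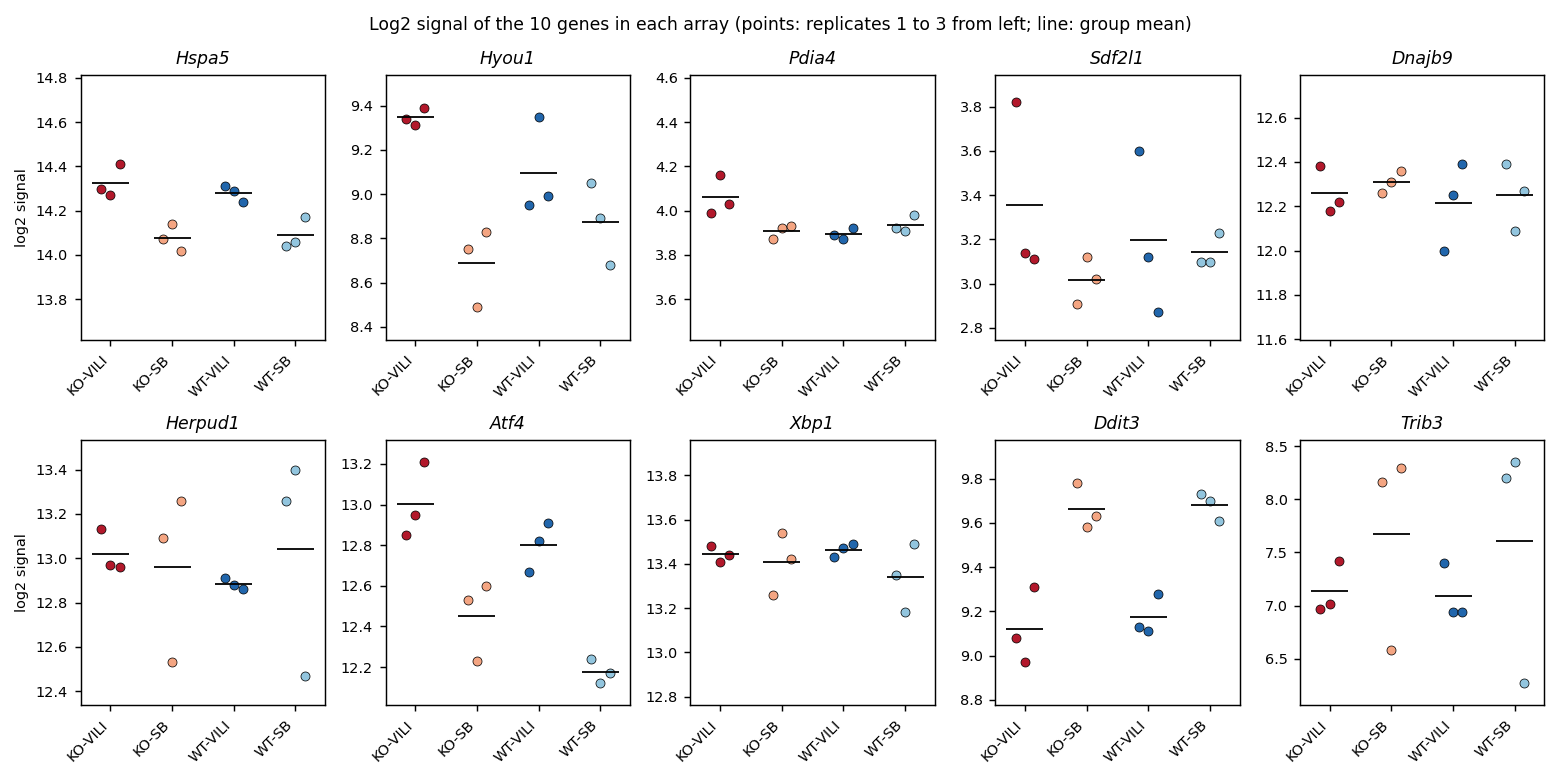
Log2 signal (y axis, own scale in each panel) of the leading probe set of the 10 genes in the 4 groups (x axis); points are single arrays and lines group means. Atf4 and Hspa5 are higher and Ddit3 lower on every VILI array than on any SB array of its genotype, and Trib3 is low on KO-SB replicate 2 and WT-SB replicate 3.

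Of the transcription factors, Atf4 rose in both genotypes. Its log2 signal was 12.85, 12.95 and 13.21 in KO-VILI, against 12.53, 12.23 and 12.60 in KO-SB. It was 12.67, 12.82 and 12.91 in WT-VILI, against 12.24, 12.12 and 12.17 in WT-SB. Every VILI array lay above every SB array of its genotype. The increase was 0.55 ± 0.13 in the knockout (limma adjusted p = 0.0147), a 1.46-fold change. In wild type it was 0.63 ± 0.13, or 1.54-fold (limma adjusted p = 0.0103). Without KO-SB replicate 2, the lowest array of its group, the knockout increase was 0.44 and just missed the threshold (limma adjusted p = 0.0511). With WT-SB replicate 3 left out as well it was 0.44 ± 0.12 and passed (limma adjusted p = 0.0398). A second Atf4 probe set read 0.38 ± 0.16 in the knockout and 0.36 ± 0.16 in wild type, again with no overlap of the groups. It passed for the mean response, at 0.37 ± 0.12 (limma adjusted p = 0.0354 over all probe sets past the filter), but in neither genotype alone (adjusted p of 0.132 and 0.189).

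Ddit3, which encodes CHOP, fell while Atf4 rose. The signal was 9.08, 8.97 and 9.31 in KO-VILI, against 9.78, 9.58 and 9.63 in KO-SB. It was 9.13, 9.11 and 9.28 in WT-VILI, against 9.73, 9.70 and 9.61 in WT-SB. All VILI arrays were below all SB arrays. The change was -0.54 ± 0.10 in the knockout (limma adjusted p = 0.00697) and -0.50 ± 0.10 in wild type (limma adjusted p = 0.0113), about 0.70-fold in the mean of both. Each call held when any 1 array was left out, with a largest adjusted p of 0.0309 in the knockout and 0.0459 in wild type. It was not shared by the second Ddit3 probe set, which is dimmer at 4.83 to 6.06 log2 over the 12 arrays. That probe set read 0.08 ± 0.25 in the knockout and -0.15 ± 0.25 in wild type, and with the mean of both probe sets the change was -0.23 and -0.32 (limma adjusted p of 0.215 and 0.118).

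Xbp1 passed in neither genotype. Its total transcript signal was 13.48, 13.41 and 13.44 in KO-VILI, against 13.26, 13.54 and 13.42 in KO-SB. It was 13.43, 13.47 and 13.49 in WT-VILI, against 13.35, 13.18 and 13.49 in WT-SB, and the groups overlapped in both genotypes. The differences were 0.04 ± 0.10 and 0.12 ± 0.10, with 95% intervals of -0.18 to 0.26 in the knockout and -0.09 to 0.34 in wild type. The other 3 Xbp1 probe sets lay between -0.05 and 0.24 in the 2 genotypes, and none passed.

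**Figure D2:**
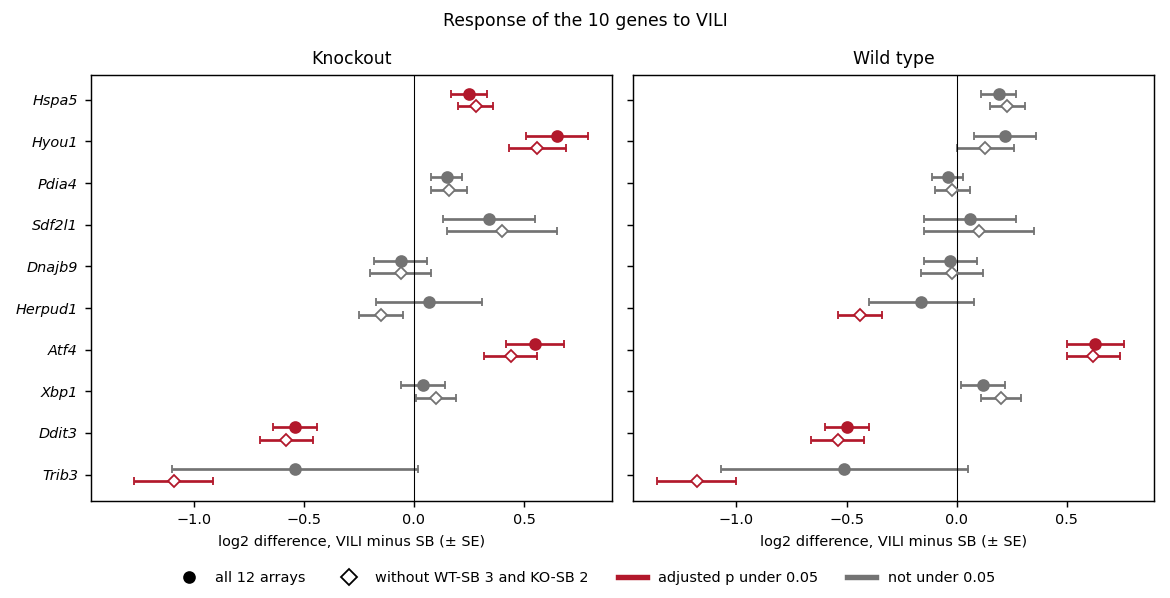
Log2 difference of VILI minus SB (x axis, bars ± SE) for the 10 genes in knockout (left) and wild type (right); filled circles use all 12 arrays and open diamonds leave out KO-SB replicate 2 and WT-SB replicate 3, red marking adjusted p under 0.05. Trib3 moves to -1.09 in the knockout and -1.18 in wild type without the 2 arrays, while Atf4, Ddit3 and Hspa5 move by 0.11 or less.

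Trib3, a pseudokinase gene that ATF4 and CHOP induce, depended on the 2 SB arrays that stand apart. Its signal was 6.97, 7.02 and 7.42 in KO-VILI, against 8.16, 6.58 and 8.29 in KO-SB. It was 7.40, 6.94 and 6.94 in WT-VILI, against 8.20, 8.35 and 6.27 in WT-SB. The low values in the SB groups are KO-SB replicate 2 and WT-SB replicate 3, which lay below every VILI array, while the other 4 SB arrays lay above every VILI array. With all arrays the change was -0.54 ± 0.56 in the knockout and -0.51 ± 0.56 in wild type (limma adjusted p of 0.519 and 0.57). Without the 2 arrays it was -1.09 ± 0.18 (limma adjusted p = 0.00573) and -1.18 ± 0.18 (limma adjusted p = 0.00318). Leaving out WT-SB replicate 3 alone gave a mean response of -0.86 (limma adjusted p = 0.0436), against -0.52 ± 0.39 with all arrays. The second Trib3 probe set had the same 2 low arrays, at 5.21 in KO-SB replicate 2 and 4.22 in WT-SB replicate 3, against 6.55 to 6.69 in the other SB arrays.

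Among the ER chaperones, Hspa5 rose slightly in the knockout and in the mean of both genotypes. This gene encodes BiP, the main Hsp70 of the ER, and carries the ERSE shown above. The signal was 14.30, 14.27 and 14.41 in KO-VILI, against 14.07, 14.14 and 14.02 in KO-SB. It was 14.31, 14.29 and 14.24 in WT-VILI, against 14.04, 14.06 and 14.17 in WT-SB. Every VILI array was above every SB array, by a small margin in wild type. The mean response was 0.22 ± 0.05, or 1.17-fold (limma adjusted p = 0.00997), and it passed whichever of the 12 arrays was left out. In the knockout alone the increase was 0.25 ± 0.08 (limma adjusted p = 0.0422). Leaving out any of 10 of the 12 arrays ended that call, up to an adjusted p of 0.118 without KO-VILI replicate 3, and it stayed without WT-SB replicate 2 or WT-SB replicate 3. In wild type alone it was 0.19 ± 0.08 and did not pass (limma adjusted p = 0.114). A second Hspa5 probe set read 0.40 ± 0.08 in the knockout and 0.27 ± 0.08 in wild type (limma adjusted p of 0.00907 and 0.0492), and the dimmest of them read 0.63 ± 0.23 and 0.79 ± 0.23 (limma adjusted p of 0.0863 and 0.0551).

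Hyou1 encodes the ER chaperone that exchanges nucleotide on BiP. Its signal was 9.34, 9.31 and 9.39 in KO-VILI, against 8.75, 8.49 and 8.83 in KO-SB. It was 8.95, 9.35 and 8.99 in WT-VILI, against 9.05, 8.89 and 8.68 in WT-SB. The knockout groups were apart and the wild-type groups overlapped. The increase in the knockout was 0.65 ± 0.14, or 1.57-fold (limma adjusted p = 0.0103), and it passed whichever of the 12 arrays was left out. In wild type the difference was 0.22 ± 0.14 (limma adjusted p = 0.297) and 0.10 without WT-VILI replicate 2, its highest array. The other Hyou1 probe set past the filter read 0.99 ± 0.25 in the knockout (limma adjusted p = 0.0273) and 0.57 ± 0.25 in wild type (limma adjusted p = 0.179). The difference between the 2 responses did not pass, as given below.

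**Figure D3:**
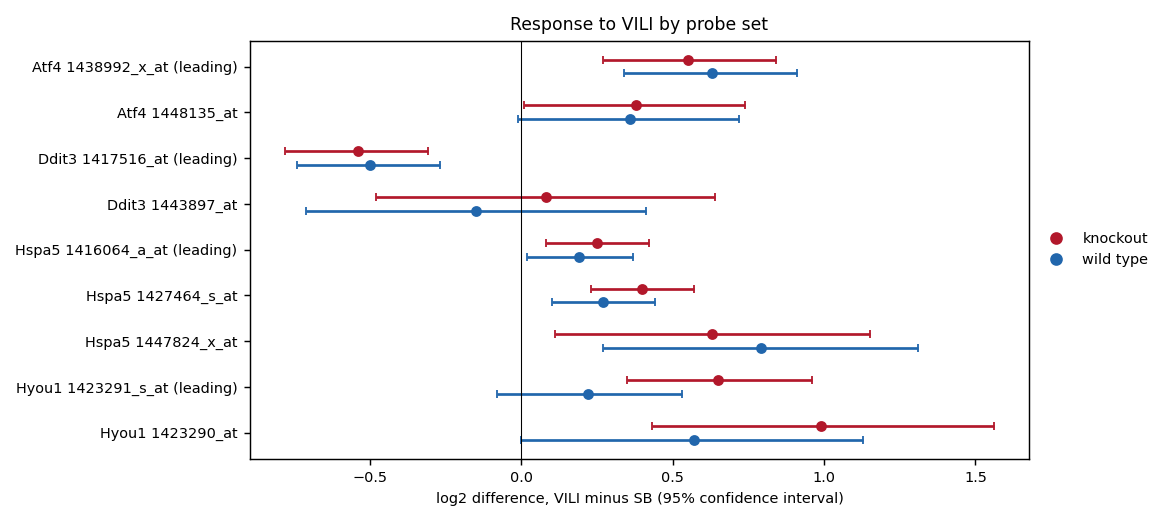
Log2 difference of VILI minus SB (x axis, bars are 95% confidence intervals) for each probe set of Atf4, Ddit3, Hspa5 and Hyou1 past the filter, knockout in red and wild type in blue. The points of Atf4, Hspa5 and Hyou1 all lie above 0, but in wild type the intervals of the leading Hyou1 and second Atf4 probe sets cross 0. The leading Ddit3 probe set is at -0.54 and -0.50. The second is at 0.08 and -0.15, with wide intervals of -0.48 to 0.64 and -0.71 to 0.41.

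The other chaperone genes passed no VILI comparison. Dnajb9, a J-domain partner of BiP that restrains IRE1, read 12.38, 12.18 and 12.22 in KO-VILI, against 12.26, 12.31 and 12.36 in KO-SB. It read 12.00, 12.25 and 12.39 in WT-VILI, against 12.39, 12.09 and 12.27 in WT-SB. The groups overlapped in both genotypes, with differences of -0.06 ± 0.12 and -0.03 ± 0.12. Pdia4, a disulfide isomerase of the ER, read 3.99, 4.16 and 4.03 in KO-VILI, against 3.87, 3.92 and 3.93 in KO-SB. It read 3.89, 3.87 and 3.92 in WT-VILI, against 3.92, 3.91 and 3.98 in WT-SB. Only the knockout groups were apart, by 0.15 ± 0.07 (limma adjusted p = 0.159). Sdf2l1, whose product works with ER J-domain proteins, reached 3.82 on KO-VILI replicate 1 and 3.60 on WT-VILI replicate 1, while the other 10 arrays lay between 2.87 and 3.23. Its differences were 0.34 ± 0.21 in the knockout and 0.06 ± 0.21 in wild type. Pdia4 and Sdf2l1 lie close to the filter level of 3.056, where this kind of summary compresses differences.

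Herpud1, a membrane protein of the ER degradation complex, had the same pair of low arrays as Trib3. Its signal was 13.13, 12.97 and 12.96 in KO-VILI, against 13.09, 12.53 and 13.26 in KO-SB. It was 12.91, 12.88 and 12.86 in WT-VILI, against 13.26, 13.40 and 12.47 in WT-SB. KO-SB replicate 2 and WT-SB replicate 3 were the lowest of all 12 arrays. With all arrays the difference was 0.07 ± 0.24 in the knockout and -0.16 ± 0.24 in wild type, and neither passed (limma adjusted p of 0.868 and 0.689). Without the 2 arrays it was -0.15 ± 0.10 in the knockout (limma adjusted p = 0.311) and -0.44 ± 0.10 in wild type (limma adjusted p = 0.0148). Herpud1 is the gene whose window held both an ERSE-II and a CARE.

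Without the 2 SB arrays, 3 of the 10 genes rose in the knockout (8.16% of all genes did) and 2 fell (11.3%). In wild type 1 rose (8.3%) and 3 fell (9.6%), and in the mean response 3 rose (14.5%) and 3 fell (20.3%). The 2 arrays also differed from the other SB arrays outside the ER stress genes. The median of the glucocorticoid response list, each gene taken relative to its mean over the 12 arrays, was -1.22 in KO-SB replicate 2 and -1.60 in WT-SB replicate 3, against -0.04 to 0.35 in the other SB arrays. For NRF2 targets, the genes of the oxidative stress response, it was -1.61 and -1.47, against 0.07 to 0.29. WT-SB replicate 3 also had the highest neutrophil and B cell marker levels of the SB arrays, at 0.89 and 1.06. The part of these differences in the Trib3 and Herpud1 values was not tested.

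**Figure D4:**
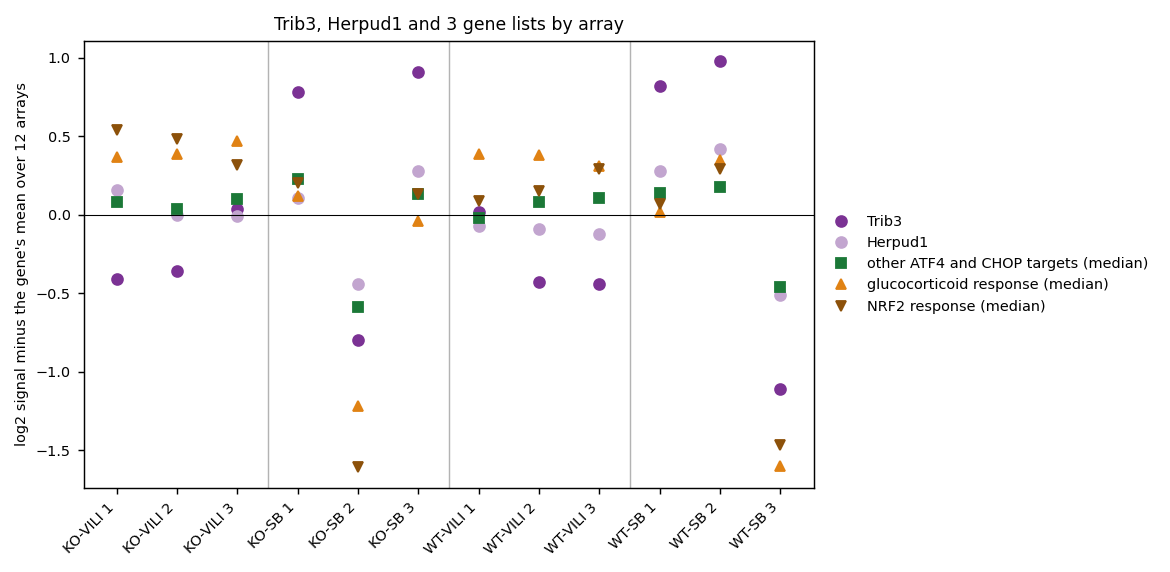
Log2 signal relative to the mean over 12 arrays (y axis) of Trib3 and Herpud1 and the medians of 3 gene lists in each array (x axis). KO-SB replicate 2 and WT-SB replicate 3 are low for all 5 measures, with Trib3 at -0.80 and -1.11.

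The knockout was also set against wild type directly. With all arrays none of the 10 genes passed for the difference of the VILI responses, knockout minus wild type. Neither did any gene of the series (0% of 12309). At an unadjusted p under 0.05 the test named Hyou1 alone of the 10, where 5.03% of all genes reached that level. The Hyou1 response was larger in the knockout by 0.43 ± 0.19 (limma unadjusted p = 0.0497, adjusted p = 0.971). For Atf4 the difference was -0.07 with a 95% interval of -0.47 to 0.32, for Ddit3 -0.04 (-0.37 to 0.28) and for Hspa5 0.06 (-0.18 to 0.30). For Trib3 the interval ran from -1.77 to 1.73 with all arrays. Without the 2 SB arrays that stand apart the Trib3 difference was 0.10 ± 0.25, with an interval of -0.47 to 0.67 (limma adjusted p = 0.94). In the same fit the Hyou1 difference was 0.43 ± 0.18 (limma unadjusted p = 0.0396, adjusted p = 0.542). None of the 10 genes passed there, while 8 of all 12309 genes were higher and 3 lower.

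Under VILI, knockout minus wild type passed for 0 of the 10 genes (0.106% of all genes passed). Only Pdia4 reached an unadjusted p under 0.05, at 0.17 ± 0.07 (limma unadjusted p = 0.0439, adjusted p = 0.559), where 8.69% of all genes did. Under SB 0 of the 10 passed (0.0487% of all genes passed) and 0 reached an unadjusted p under 0.05 (3.74% of all genes). Atf4 came nearest, at 12.45 ± 0.20 in KO-SB and 12.18 ± 0.06 in WT-SB (SD, n = 3 each), a difference of 0.28 ± 0.13 with an adjusted p of 1 from limma. It was 0.39 ± 0.14 without the 2 SB arrays that stand apart (limma unadjusted p = 0.02, adjusted p = 0.525). With all arrays the second Atf4 probe set went the other way, at -0.11 ± 0.16 under SB and -0.10 ± 0.16 under VILI. All 6 comparisons of a gene use the same 12 arrays, so those with a shared group are not independent.

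The other genes of the pathway were taken from 6 lists with 111 listed genes, 102 of them tested. In the mean VILI response 18 of the 102 rose, where 14.1% of all genes did, and 8 fell, where 22.6% did, with a median of 0.08 against -0.05 for all genes. Leaving out the 2 SB arrays that stand apart, 27 rose (14.5% of all genes) and 12 fell (20.3%). In the knockout 10 rose (8.12% of all genes) and 1 fell (12.6%), and in wild type 8 rose (6.34%) and 4 fell (9.03%). The counts within a genotype depend on single arrays. The 11 calls in the knockout became 3 without KO-VILI replicate 2, 6 without KO-SB replicate 3, and 7 without KO-VILI replicate 1 or 3. The 12 in wild type became 3 without WT-SB replicate 1, 6 without WT-VILI replicate 1, and 5 without WT-VILI replicate 2 or 3. Values below are therefore for the mean of both genotypes, and 0 of the 102 passed for the difference of responses.

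Of 11 tested stress sensors and their partners, 2 rose and 2 fell, beside 14.1% and 22.6% of all genes. Creb3l2, an ER-anchored transcription factor of the same build as ATF6, rose by 0.64 ± 0.06 (limma adjusted p = 9.5e-05), the largest of this list. Its signal was 10.99, 10.82 and 11.00 in KO-VILI, against 10.42, 10.27 and 10.23 in KO-SB, and 11.05, 10.97 and 10.93 in WT-VILI, against 10.26, 10.43 and 10.30 in WT-SB. All VILI arrays were above all SB arrays. Eif2ak3, which encodes PERK, rose by 0.34 ± 0.08 (limma adjusted p = 0.00905). Mbtps2, the protease gene for the second cut of ATF6, changed by -0.51 ± 0.09 (limma adjusted p = 0.00193). Ern1, which encodes IRE1, changed by -0.35 ± 0.10 (limma adjusted p = 0.0252), a call that ended in 6 of the 12 leave-one-out fits, up to an adjusted p of 0.0628 without KO-VILI replicate 2. Of the 4 other eIF2alpha kinases and phosphatase genes, Eif2ak1 alone passed, at 0.27 ± 0.09 (limma adjusted p = 0.0332), and that call ended in 7 of those 12 fits (up to an adjusted p of 0.0727, without KO-SB replicate 2).

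In the degradation list 7 of 17 tested genes were higher and 1 lower, beside 14.1% and 22.6% of all genes. Ube2g2 and Ube2j1, ubiquitin-conjugating enzymes of the ER, rose by 0.53 ± 0.08 (limma adjusted p = 0.0011) and 0.46 ± 0.08 (limma adjusted p = 0.0016). Ube2g2 read 10.29, 10.28 and 10.30 in KO-VILI, against 9.80, 9.50 and 9.93 in KO-SB, and 10.26, 10.57 and 10.32 in WT-VILI, against 9.91, 9.86 and 9.82 in WT-SB, with no overlap. Selenos, which recruits the extracting ATPase to the ER membrane, rose by 0.36 ± 0.06, and Syvn1, the ubiquitin ligase HRD1, by 0.33 ± 0.07 (limma adjusted p of 0.00237 and 0.00469). The gene that fell was Edem2, a mannose-trimming factor, by 0.33 on the log2 scale, named after its value was seen. All 8 calls of this list held in each of the 12 leave-one-out fits. Of 18 tested genes of translocation and vesicle export, 5 rose and none fell. Without the 2 SB arrays that stand apart 9 of them rose and none fell, beside 14.5% and 20.3% of all genes. With all arrays the 4 with the smallest p were Sec24d, a coat protein of export vesicles (0.41 ± 0.09), Srpr, the signal recognition particle receptor (0.27 ± 0.06), Srp19 of that particle (0.25 ± 0.06) and Sec61a1, the translocation channel (0.33 ± 0.09).

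The other chaperones and folding enzymes mostly did not pass. Of 21 tested genes, Dnajb11, a J-domain partner of BiP, rose by 0.34 ± 0.08 (limma adjusted p = 0.00673). Erp44, a thioredoxin-like folding factor, changed by -0.30 ± 0.10 (limma adjusted p = 0.0408), and its call ended in 8 of the 12 leave-one-out fits (up to an adjusted p of 0.0896, without KO-SB replicate 2). The list median was 0.02, and 14.1% of all genes rose and 22.6% fell. Without the 2 SB arrays that stand apart 5 of these genes rose and none fell, beside 14.5% and 20.3% of all genes. They were led by Manf, a secreted ER stress protein, at 0.34 ± 0.06 (limma adjusted p = 0.00278). The others were Dnajb11 (0.30), the oxidase Ero1b (0.26), the disulfide isomerase Pdia6 (0.29) and the lectin chaperone Calr (0.31), the last named after its value was seen.

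**Figure D5:**
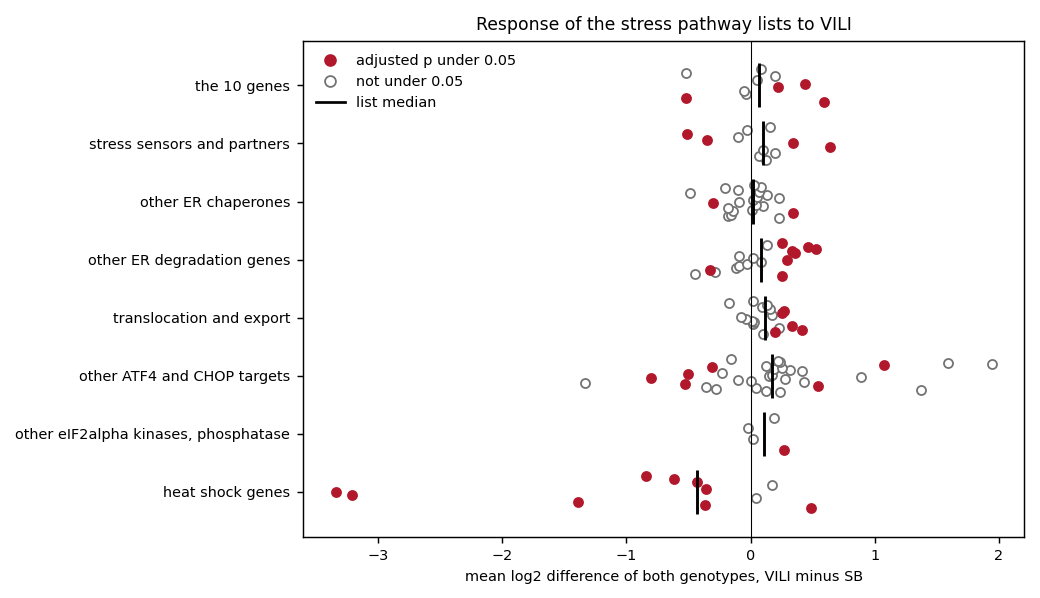
Mean log2 difference of VILI minus SB over both genotypes (x axis) for each tested gene of 8 lists (rows); filled red points passed at adjusted p under 0.05, open points did not, and black bars are list medians. Passing genes of the degradation and export lists lie mainly above 0, and the heat shock genes mainly below 0, down to -3.34.

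The other targets of ATF4 and CHOP were split. Of 31 tested genes 2 rose (14.1% of all genes) and 4 fell (22.6%), with a list median of 0.17. The 4 with the smallest p all fell: Shmt2, a mitochondrial serine enzyme (-0.31 ± 0.07), Pck2, a mitochondrial carboxykinase (-0.50 ± 0.12), Gpt2, a mitochondrial alanine transaminase (-0.80 ± 0.19), and Cebpg, a partner of ATF4 (-0.53 ± 0.14). Their limma adjusted p ran from 0.0069 to 0.0157. The genes that rose, named after their values were seen, were Cebpb, a transcription factor gene, by 0.54 and Slc7a1, an arginine transporter gene, by 1.07, the call of Slc7a1 ending in 7 of the 12 leave-one-out fits (up to an adjusted p of 0.0664, without KO-VILI replicate 1). The widest values in the list did not pass: Slc7a11, a cystine transporter gene, at 1.94 and Chac1, a glutathione-degrading enzyme gene, at -1.33 (limma adjusted p of 0.0863 and 0.0706); both are named here after their values were seen. The upward values were smaller without the 2 SB arrays that stand apart: Slc7a11 was 0.67 ± 0.21 and passed (limma adjusted p = 0.0364), Slc7a1 was 0.55 ± 0.13 and Cebpb 0.32 ± 0.06.

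As with Trib3, this list differed between the SB arrays. Its median relative to each gene's mean was -0.59 in KO-SB replicate 2 and -0.46 in WT-SB replicate 3, against 0.13 to 0.23 in the other SB arrays and -0.02 to 0.11 in the VILI arrays. Without the 2 arrays 3 of the 31 rose and 9 fell, beside 14.5% and 20.3% of all genes, and the list median was -0.10. The 4 with the smallest p then were Gpt2 (-1.05 ± 0.11), Chac1 (-2.08 ± 0.23), Cars, a cysteine tRNA ligase gene (-0.65 ± 0.09), and Pck2 (-0.64 ± 0.09), with limma adjusted p from 0.000248 to 0.00124. Chac1 read 6.80, 6.84 and 7.07 in KO-VILI, against 8.45, 6.78 and 8.04 in KO-SB, and 6.81, 6.85 and 6.86 in WT-VILI, against 10.34, 8.98 and 6.64 in WT-SB. As for Trib3, KO-SB replicate 2 and WT-SB replicate 3 were below every VILI array and the other 4 SB arrays above every one.

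A list of heat shock genes of the cytosol, with Hspe1 and Hspd1 of the mitochondria among them, was set beside the ER genes as the response to unfolded protein elsewhere in the cell. Of 11 tested, 8 fell and 1 rose in the mean response, beside 22.6% and 14.1% of all genes, with a median of -0.43. Hspa1b, an inducible cytosolic Hsp70, read 10.88, 10.55 and 11.05 in KO-VILI, against 14.31, 11.82 and 14.48 in KO-SB, and 10.31, 9.89 and 10.44 in WT-VILI, against 14.66, 13.97 and 13.90 in WT-SB. It changed by -3.34 ± 0.41 (limma adjusted p = 0.000297). The other 3 with the smallest p were Hspe1, a mitochondrial co-chaperonin (-0.62 ± 0.07), Dnajb1, an Hsp40 (-1.39 ± 0.19), and Hspa1a (-3.21 ± 0.47). The gene that rose, named after its value was seen, was Bag3, a co-chaperone, by 0.49. Near-identical Hspa1a and Hspa1b can share probes, so they may not be separate readings.

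Plasma and B cell markers passed for 1 of 7 tested genes in the mean response: Jchain, the joining chain of secreted antibodies, at -0.90 ± 0.20 (limma adjusted p = 0.00719). In that response 14.1% of all genes rose and 22.6% fell. Between the genotypes, 1 of the 7 was higher in the knockout under SB (0.0487% of all genes passed). Under VILI 1 of the 7 was higher in the knockout (0.106% passed). With the 2 SB arrays that stand apart left out, 4 of the 7 rose (14.5% of all genes) and Jchain fell (20.3%) in the mean response. In the knockout 3 of the 7 rose then (8.16% of all genes), and in wild type 0 rose (8.3%) and 1 fell (9.6%). Of the KO-SB arrays kept, replicate 3 had a list median of -1.05 relative to each gene's mean and replicate 1 had -0.21. The 4 in the mean response were Cd79a (0.82), Cd79b (0.77), Pou2af1 (1.57) and Sdc1 (0.22). Cd79a and Cd79b are parts of the B cell receptor, Pou2af1 is a B cell coactivator, and Sdc1 was listed as a plasma cell marker. Ms4a1 (0.33) and Mzb1 (-0.08) did not pass. The log2 of the summed signal of the whole list was 13.36 to 13.49 in KO-VILI against 13.14 to 13.34 in KO-SB, and 13.13 to 13.24 in WT-VILI against 12.93 to 13.42 in WT-SB. Of 6 type 2 cell markers 1 passed in the mean response with all arrays, Sftpd at 0.29 (14.1% of all genes rose). The part of cell makeup in the Hspa5 and Hyou1 values was not tested.

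The genes most like Atf4, Ddit3, Hspa5 and Hyou1 over the 12 arrays were found by the root mean square difference of log2 profiles centred on their means. For Atf4 they were Pgd, Vps37c and Mybbp1a, at 0.0982, 0.11 and 0.13. For Ddit3 they were Slc2a13, Armt1 and Smpd2, at 0.0791, 0.0811 and 0.0835. For Hspa5 they were Sin3b, Ppp2r1a and Psmc1, at 0.0519, 0.0591 and 0.0595. For Hyou1 they were Znrf1, Ltbr and Sec22b, at 0.0749, 0.082 and 0.0846. The measure is smaller for genes that vary less, so it is read within a gene only.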

How the data were processed

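The deposited table gives a log2 signal for every probe set, normalized between arrays by the authors; per the submitters' processing notes MAS5 and GCRMA were used, with role and version not given in the sources used here. Array medians lay between 4.94 and 5.04. Such summaries compress dim differences and hide a change in total RNA. The number of arrays limits the precision.

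Of 45037 probe sets, 34945 had 1 symbol, 932 several and 9160 none. Those with a mean under the 40th percentile (3.056) were left out. The highest-mean probe set of each gene was fitted with limma 3.58.1 (R 4.3.3; lmFit, eBayes) as 4 group means over 12 arrays, with Benjamini-Hochberg adjustment within each comparison and a threshold of 0.05. Probe sets of 1 gene came from a like fit over 22443 probe sets. On simulated data with 200 genes changed 2-fold among 12309, the fit found 71.6% in the wild-type VILI comparison and 6.3% of calls were false. Motifs were searched in RefSeq windows with Python 3.11.15.

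The 10 genes, the lists and the tests were chosen with earlier results of these data known. Named beside the 10 genes are up to 4 genes per list with the smallest p among those passing, and the 3 genes most like each of the 4 that passed. Replicate numbers were not taken to pair the samples. Same-numbered arrays of different groups correlated at -0.628 to 0.398 (median -0.018) in their deviations from the group means. Arrays with different numbers correlated at -0.544 to 0.706 (median 0.028). With 3 arrays in a group this check cannot exclude a pairing.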

Additional observations from a re-analysis of the deposited data

How the results depend on the processing

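Alternatives were equal array medians, quantile normalization, no filter, a filter at the 60th percentile, the mean of a gene's probe sets, eBayes with trend and robust, limma arrayWeights (its gene-by-gene method), only the groups compared, a replicate block, each array left out, the 2 SB arrays left out, and each other probe set. With 1 array left out, the 10 genes gave 2 to 4 calls in the knockout, 2 in wild type, 4 to 5 in the mean response and 0 in the other 3 comparisons. The other pathway genes gave 3 to 16, 3 to 13 and 23 to 34 calls, and 0 for the difference of responses. Calls in wild type among the 10 genes were 4 with arrayWeights and 4 without the 2 SB arrays, against 2. Other pathway calls in the knockout were 25 with arrayWeights, 7 with only the groups compared and 17 without the 2 SB arrays, against 11. In wild type they were 26 with arrayWeights, 4 with only the groups compared and 7 with the replicate block, against 12, and in the mean response 43 with arrayWeights, against 26. Without the 2 SB arrays wild type had 18 and the mean response 39. The cause of these shifts was not tested. With the replicate block the 10 genes gave 3 calls in the knockout, 2 in wild type and 4 in the mean response. The call lost in the knockout was Hspa5 (limma adjusted p = 0.0788). Whether the numbers pair the samples cannot be settled from these values. The second Ddit3 probe set turned the sign in the knockout, at 0.079. Of 1348 values of the 10 genes under alternatives, 1239 kept direction and call, 20 lost a call, 13 gained one, 75 uncalled values changed sign and 1 called value did.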
